A study of Mus musculus with 24 samples.

Results

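The genes described here are 40 mouse genes of DNA replication, taken from a list of names that was drawn up with earlier results of these arrays known. Of the 40, 38 had a row among the 18052 genes of the sorted-cell table and 39 among the 20968 genes of the second table. Chaf1a was not analysed here, and Pcna was analysed only in the second table. The expression arrays came from the distal femur of C57BL/6J mice, the end of the thigh bone at the knee. Skeletal stem cells were sorted from newborns at postnatal day 3 (4 arrays), from uninjured adults (3 arrays) and from adults whose joints had been microfractured, a surgical perforation of the bone beneath the cartilage (3 arrays). Whole bone was arrayed from newborns (3 arrays), uninjured adults (5 arrays) and microfractured adults (3 arrays). A further 3 single arrays held stem cells sorted from microfractured joints that had received PBS, BMP2 or VEGFR1. Adults were 9 to 25 weeks old, and the sort kept cells that carried integrin alpha V and lacked TIE2, CD45, TER119, 6C3, CD105 and THY1. RNA of 500 to 1000 sorted cells went through 2 rounds of amplification, and the labels do not say whether a sorted sample pooled animals.

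Before a cell can copy its DNA, the origin recognition complex together with CDC6 and CDT1 loads the ring-shaped MCM helicase onto chromatin, a step called licensing. At the start of S phase CDC45, the GINS complex and MCM10 turn the loaded ring into a working helicase. DNA polymerase alpha with its primase lays down primers, DNA polymerase epsilon and other polymerases extend them, and the sliding clamp PCNA, its loader RFC, the nuclease FEN1 and the ligase LIG1 complete and join the strands. Enzymes of deoxynucleotide synthesis feed the process. Many of these genes are transcribed under E2F factors as cells leave quiescence, so their transcripts are widely used as marks of a dividing population. Skeletal stem cells divide in the growing bones of newborns, and in adults they are known to expand after injury.

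The sorted arrays carried transcripts that the sort should have removed, and the amount differed between groups. Intensity of Ptprc, which encodes CD45, was 38.5 to 88.3 in newborn, 3146 to 3865 in uninjured adult and 528 to 791 in microfractured adult arrays. The sum over 10 myeloid markers was 2658 to 3525 in newborn, 42910 to 63110 in uninjured and 8588 to 26440 in microfractured arrays. The sum over the 8 erythroid markers in the table was 1084 to 1668, 8669 to 10040 and 1936 to 3212 in the same order, and that over 7 lymphocyte markers 246.9 to 481.1, 1845 to 2810 and 370.2 to 561. The 5 endothelial markers summed to 173.6 to 371.7, 985.4 to 2971 and 236 to 806.1. The uninjured adult arrays were therefore the highest of the 3 groups in each of these lists without overlap. Tek, Thy1 and Eng, further genes of excluded markers, were highest in uninjured arrays, as Ptprc was. Enpep, which encodes 6C3, was instead highest after microfracture. It read 50.8 to 79.6 in newborn, 128 to 222 in uninjured and 269 to 551 in microfractured arrays. Itgav, the positive marker of the sort, read 659 to 1636 across all 10 arrays. The cartilage genes Sox9, Col2a1 and Acan read above 600 in each array. Of these, Sox9 and Acan were lowest in uninjured arrays and Col2a1 in newborn arrays. Sox9 was 2520 to 3042 in newborn, 613 to 913 in uninjured and 1230 to 2951 in microfractured arrays. Runx2, a skeletal gene listed with them, read 1090 to 1304 in newborn, 1953 to 3298 in uninjured and 1146 to 2280 in microfractured arrays. Pdpn, also listed, read 949 to 1217, 509 to 622 and 1075 to 3555 in the same order. All 10 arrays had been scaled to nearly the same trimmed mean (490.3 to 494.9), yet the median over all genes was 315 to 349.4 in uninjured arrays against 182.3 to 210.2 in newborn and 174.8 to 225.7 in microfractured arrays. Replicates correlated across genes at 0.951 to 0.967 in newborn, 0.832 to 0.902 in uninjured and 0.887 to 0.934 in microfractured sorted cells.

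In sorted stem cells the replication genes were highest in newborns, intermediate in uninjured adults and lowest after microfracture. The median intensity over the 38 genes was 640 to 732.4 on the newborn arrays, 444.9 to 505.5 on the uninjured adult arrays and 244.1 to 268.7 on the microfractured arrays, with no overlap between groups. By group means, 27 of the 38 genes (71.1%) followed the order newborn, uninjured adult, microfractured adult, an order shown by 15.3% of the 10893 genes tested. A further 9 (23.7%) were highest in uninjured adults and lowest after microfracture, against 14.7% of all genes tested. Cdc6, Cdc45, Mcm10, Pola1, Fen1, Brca1, E2f1, Tyms and Chaf1b made up those 9. Tyms and Chaf1b were not among the genes tested, so the shares of the 38 and of the genes tested cover unlike sets. Without Tyms and Chaf1b the 23.7% would be smaller and nearer to the 14.7%. The remaining genes were Ccne2, lowest in uninjured adults on the log2 scale, and Rpa1, lowest in newborns. In these small amplified pools fewer dividing cells and less RNA per cell cannot be told apart. The part of the blood cell transcripts described above in this order was not tested.

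**Figure D1:**
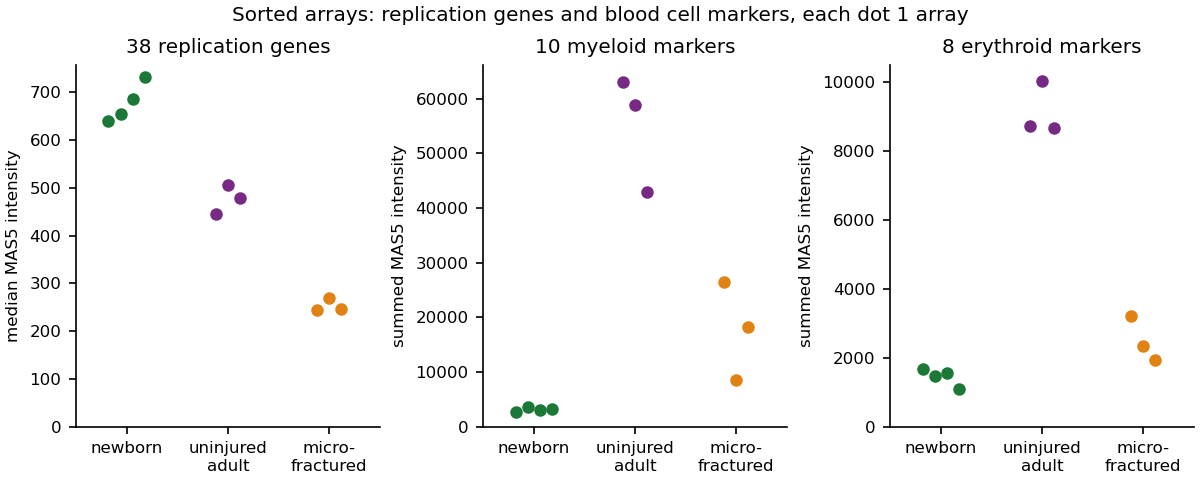
Sorted-cell arrays by group (4 newborn, 3 uninjured adult, 3 microfractured adult), each dot 1 array. The left panel gives the median MAS5 intensity of the 38 replication genes, which runs from 640 to 732.4 in newborns down to 244.1 to 268.7 after microfracture, and the other panels give the summed MAS5 intensity of 10 myeloid and 8 erythroid markers, highest in the uninjured adult arrays.

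Of the 38 genes, 36 exceeded an intensity of 250.4, the median of the table, on at least 3 arrays and were tested with all other genes in limma. Tyms and Chaf1b did not and were not tested. Mcm5, Gins1, Pole, Rfc3, Rpa2 and Dut passed only with the newborn arrays counted, and Gins1 and E2f1 only with the uninjured arrays, so a difference of these genes was favoured by the filter. A gene was called when its adjusted p was below 0.05. After microfracture 15 of the 36 were lower than in uninjured adults and 0 were higher, against 19.8% of all genes tested called lower and 13.3% called higher. The 15 make up 41.7% of the replication genes tested. Their log2 differences had a median of -0.851 over the 36 genes, against -0.0421 over all genes tested, and 35 of 36 lay below 0. In newborns 14 of 36 (38.9%) were higher than in uninjured adults and 0 were lower, where 25.2% of all genes were called higher and 29.4% lower. The median log2 difference was 0.553, against -0.0214 over all genes. Against microfractured adults 28 of 36 (77.8%) were higher in newborns and 0 lower, with 18.4% of all genes called higher and 18.3% lower, and the median was 1.23 against 0.056. The 3 comparisons share groups, so their counts do not stand as separate evidence.

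How far the uninjured group lay from the other groups depended on the scaling, because its arrays had the higher overall median. With each array centred on its median, the median difference of all genes after microfracture moved from -0.0421 to 0.613, and 1 replication gene was called higher and 4 lower, where 44.8% of all genes were called higher and 8.53% lower. On that scale 16 of the 36 genes lay above 0. Taken relative to the median of all genes, which centring leaves as it is by construction, the replication genes were at -0.808 and 35 of 36 lay below it, and after quantile normalization they were at -0.516 with 30 of 36 below. Of the 15 calls, 4 were kept with centred arrays (Brca1, Fen1, Mcm10 and Pole), 7 after quantile normalization (Fen1, Lig1, Mcm10, Pola1, Rrm1, Rrm2 and Uhrf1) and 2 in both. The gene called higher with centred arrays was Rpa1. The comparison of newborns with microfractured adults moved less: 28 of 36 were called higher with centred arrays and 25 after quantile normalization. Of all genes, 18.7% and 13.6% were called higher on those scales. Newborn against uninjured adult gave 28 higher calls with centred arrays, where 52.3% of all genes were called higher. After quantile normalization it gave 15 higher and 1 lower, where 27.8% of all genes were called higher and 23.4% lower. Single arrays also mattered. The count after microfracture was 9 without microfractured replicate 3, where 12.7% of all genes were called lower. It was again 9 without uninjured replicate 3, where 8.83% of all genes were called lower. The count of newborn over uninjured adult was 6 of 36 without uninjured replicate 1. That was a smaller share than the 23.5% of all genes called higher there.

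**Figure D2:**
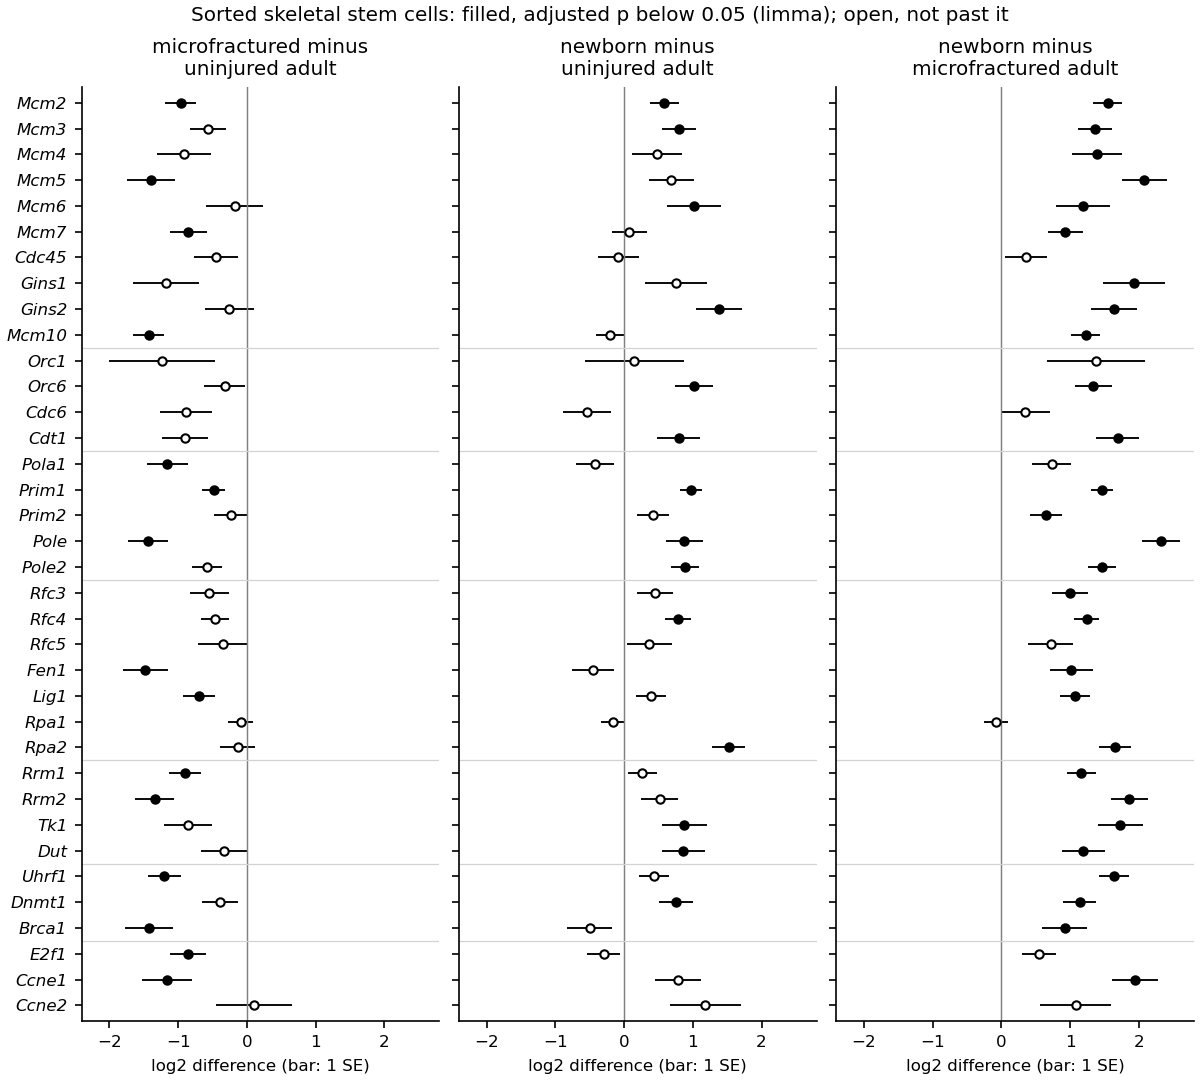
Log2 difference with its standard error for the 36 replication genes tested in sorted cells, in 3 comparisons. Genes run from the helicase at the top through licensing, polymerases, clamp and strand joining, nucleotide supply and chromatin to the cell cycle regulators at the bottom, with grey lines between the groups, and filled points had an adjusted p below 0.05. After microfracture 35 of 36 points lie left of 0, and in newborns against microfractured adults 35 of 36 lie right of it.

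Start regions are shown because most of these genes moved together and E2F factors are known to act near their starts. RefSeq windows (build GRCm38.p6) from 250 bases before to 50 after the start were matched for 34 of the 40 genes, giving 41 windows. The E2F words TTTCCCGC, TTTGGCGC, TTTCGCGC and TTTGCCGC were searched on both strands, and they may overlap one another and the word GGGCGG. At least 1 was found in 13 of the 41 windows (31.7%), against 2.26% of all 32851 windows and 2.85% of the 21263 windows of protein-coding genes. The 13 windows belonged to Mcm3, Mcm5, Mcm6, Mcm7, Orc1, Cdc6, Cdt1, Pola1, Pole2, Rfc3, Lig1, Uhrf1 and Dnmt1. CCAAT was found in 58.5% of the windows against 37.4% of all, GGGCGG in 68.3% against 35.7%, TTTGAA or TTCGAA in 14.6% against 19.2% and TATAAA in 4.88% against 13.6%. In the windows of protein-coding genes these words were found in 38.2%, 46.2%, 17.6% and 12.6%, in the same order. The stretches below all lie upstream of the start and carry E2F words in capitals. Mcm5 and Mcm6 have overlapping words on opposite strands, Pola1 and Uhrf1 were among the genes lower after microfracture, and Cdc6 carries a word but was called in no sorted comparison.
Mcm5, chr8:75109331-75109392 (+): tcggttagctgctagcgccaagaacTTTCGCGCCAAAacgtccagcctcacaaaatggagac
Mcm6, chr1:128359720-128359840 (-): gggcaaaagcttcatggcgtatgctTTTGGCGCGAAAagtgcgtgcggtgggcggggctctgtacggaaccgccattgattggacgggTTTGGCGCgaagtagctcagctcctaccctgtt
Pola1, chrX:93632261-93632318 (-): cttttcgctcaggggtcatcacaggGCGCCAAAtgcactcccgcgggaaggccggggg
Uhrf1, chr17:56304103-56304160 (+): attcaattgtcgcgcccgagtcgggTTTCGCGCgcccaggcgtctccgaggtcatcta
Cdc6, chr11:98907988-98908045 (+): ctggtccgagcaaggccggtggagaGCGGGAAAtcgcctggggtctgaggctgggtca
Genes with and without such a word were set side by side, with no test. After microfracture 5 of 13 tested genes with a word and 9 of 17 without one were called lower, with median log2 differences of -0.85 and -0.852. Between newborns and microfractured adults 10 of 13 and 13 of 17 were called higher, with medians of 1.19 and 1.23. These words are letters in a window and not measured binding.

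Among the 10 helicase genes, 9 (90%) were higher in newborns than in microfractured adults, against 18.4% of all genes tested. In microfractured adults 4 (40%) were lower than in uninjured adults, against 19.8% of all genes. Mcm10 (Entrez gene 70024), which links the helicase to polymerase alpha, had the smallest p after microfracture. Its intensity was 175, 193 and 210.0 on the microfractured arrays, 692, 560.1 and 415 on the uninjured arrays and 512, 409, 471 and 501 on the newborn arrays. Every microfractured array was lower than every other array, and the newborn and uninjured arrays overlapped. The log2 difference after microfracture was -1.43 ± 0.23 (SE, adjusted p = 0.00159), a level 0.372 times that of uninjured adults. Newborns exceeded microfractured adults by 1.23 ± 0.21 (SE, adjusted p = 0.00065) and did not differ detectably from uninjured adults (-0.20 ± 0.21 (SE, adjusted p = 0.451)).

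Mcm2 and Mcm5, subunits of the ring itself, were highest in newborns and lowest after microfracture. Mcm2 (Entrez gene 17216) read 554, 650.2, 668 and 707 in newborns, 396, 502 and 379.5 in uninjured adults and 220.3, 258 and 159.8 after microfracture. The 3 groups did not overlap for Mcm2. Its log2 differences were -0.96 ± 0.23 (SE, adjusted p = 0.008) after microfracture, 0.58 ± 0.21 (SE, adjusted p = 0.033) for newborn against uninjured adult and 1.55 ± 0.21 (SE, adjusted p = 0.000105) for newborn against microfractured adult. The call after microfracture ended with centred arrays (-0.309, adjusted p = 0.27) and after quantile normalization (-0.494, adjusted p = 0.132). The newborn call over uninjured adults ended in 5 of 7 fits that each left out 1 array. Mcm5 read 617, 583, 645 and 549 in newborns, 186, 425 and 600.4 in uninjured adults and 165, 134 and 96.3 after microfracture. Uninjured adults varied most for Mcm5, with replicate 1 close to the microfractured arrays and replicate 3 within the newborn range. The Mcm5 difference was -1.39 ± 0.35 (SE, adjusted p = 0.0106) after microfracture and 2.08 ± 0.33 (SE, adjusted p = 0.000295) between newborns and microfractured adults, a 4.24-fold difference. The newborn excess over uninjured adults, 0.69 ± 0.33 (SE, adjusted p = 0.0916), did not pass. Without uninjured replicate 3 the Mcm5 call after microfracture was just lost (adjusted p = 0.0503).

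The other ring subunits and activators divided by comparison. Mcm3 read 663, 659, 766 and 1202 in newborns, 373, 505 and 482 in uninjured adults and 255, 273 and 383 after microfracture, so newborns stood apart while adults overlapped. It was higher in newborns than in uninjured adults by 0.80 ± 0.24 (SE, adjusted p = 0.0142), a call lost without uninjured replicate 1, and the adult groups differed by -0.56 ± 0.26 (SE, adjusted p = 0.114). Gins2, a subunit of the GINS complex that joins the active helicase, read 521, 839.9, 654 and 501 in newborns, 295, 319 and 120.2 in uninjured adults and 141, 178 and 259.7 after microfracture. Newborn arrays were above every adult array, and the adult groups overlapped. The newborn excess of Gins2 was 1.38 ± 0.33 (SE, adjusted p = 0.00375) over uninjured and 1.64 ± 0.33 (SE, adjusted p = 0.002) over microfractured adults, and both calls held with any 1 array left out. Gins1 passed for newborn over microfractured adult (1.93 ± 0.45 (SE, adjusted p = 0.00485), and at most 0.0166 in the 3 of 7 fits with 1 array left out in which it was still tested) but not after microfracture (-1.18 ± 0.48 (SE, adjusted p = 0.0778)). Mcm7 was lower after microfracture (-0.85 ± 0.27 (SE, adjusted p = 0.0298)), a call that ended in 4 of the 6 fits that each left out 1 array, and newborns and uninjured adults were close (0.079 ± 0.25 (SE, adjusted p = 0.808)). Mcm4 and Mcm6 were higher in newborns than in microfractured adults, by 1.39 and 1.19. The Mcm6 call was lost in 5 of 7 fits with 1 array left out. Cdc45, which the active helicase also requires, passed in no comparison, with differences of -0.45, -0.084 and 0.36.

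None of the 4 licensing genes was called after microfracture, where 19.8% of all genes were called lower, although all 4 had differences below 0. Orc6, a subunit of the origin recognition complex, read 1239, 1165, 1059 and 1232 in newborns, 833, 529 and 421 in uninjured adults and 279.5, 529.6 and 622 after microfracture. The newborn arrays lay above all adult arrays, which overlapped each other. Orc6 was higher in newborns by 1.02 ± 0.28 (SE, adjusted p = 0.00744) against uninjured and 1.34 ± 0.28 (SE, adjusted p = 0.00208) against microfractured adults, while the adult groups differed by -0.32 ± 0.29 (SE, adjusted p = 0.423). Cdt1, the helicase loader, had means of 1043 ± 129 (SD, n = 4) in newborns, 653 ± 336 (SD, n = 3) in uninjured adults and 315 ± 75.1 (SD, n = 3) after microfracture. It was higher in newborns than in microfractured adults (1.70 ± 0.31 (SE, adjusted p = 0.000952)). Its call over uninjured adults (0.80 ± 0.31 (SE, adjusted p = 0.0457)) ended in 6 of 7 fits that left out 1 array, and its difference after microfracture, -0.90 ± 0.33 (SE, adjusted p = 0.0543), missed the threshold. Cdc6 and Orc1 passed in no comparison. Orc1 had the widest spread of these genes after microfracture, with intensities of 689, 102 and 19.5 on the 3 arrays.

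Of the 5 polymerase and primase genes, 3 (60%) were lower after microfracture and 3 (60%) higher in newborns, each against uninjured adults. Of all genes tested, 19.8% were called lower after microfracture and 25.2% higher in newborns. Pole encodes the catalytic subunit of DNA polymerase epsilon, the leading-strand polymerase. It read 489, 439, 377 and 408 in newborns, 171, 198 and 332 in uninjured adults and 76.0, 65.1 and 77.0 after microfracture. The 3 groups did not overlap, and all microfractured and 2 of 3 uninjured arrays were below 250.4. The log2 difference was -1.44 ± 0.29 (SE, adjusted p = 0.00408) after microfracture and 0.88 ± 0.27 (SE, adjusted p = 0.0153) in newborns against uninjured adults. Newborns exceeded microfractured adults 5-fold (2.32 ± 0.27 (SE, adjusted p = 2.84e-05)). Pole entered the test only through its newborn arrays, so the size of its newborn difference was favoured by the filter. After quantile normalization the difference of Pole after microfracture was -0.438 (adjusted p = 0.435), no longer a call.

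Prim1, the catalytic primase subunit, showed the 3 groups apart with little spread. It read 1111, 1105, 1326 and 1219 in newborns, 639, 602 and 547 in uninjured adults and 429.6, 392 and 442 after microfracture. Newborns exceeded uninjured adults by 0.98 ± 0.16 (SE, adjusted p = 0.000285) and microfractured adults by 1.46 ± 0.16 (SE, adjusted p = 1.6e-05). Its smaller difference after microfracture, -0.48 ± 0.17 (SE, adjusted p = 0.0449), turned to 0.17 (adjusted p = 0.503) with centred arrays and lost its call in 5 of 6 fits with 1 array left out. Pole2, the second subunit of polymerase epsilon, read 818, 1077, 872 and 913 in newborns, 456, 527 and 476 in uninjured adults and 418, 325 and 242 after microfracture. These groups did not overlap either, but only the newborn contrasts passed, with 0.89 ± 0.20 (SE, adjusted p = 0.00266) against uninjured and 1.47 ± 0.20 (SE, adjusted p = 0.000114) against microfractured adults. The difference after microfracture was -0.58 ± 0.22 (SE, adjusted p = 0.0591). Pola1, the catalytic subunit of polymerase alpha, had another order, with 668, 389 and 594 in uninjured adults, 397, 284, 421 and 518 in newborns and 241, 312 and 165 after microfracture. Microfractured arrays lay below the uninjured ones (-1.15 ± 0.30 (SE, adjusted p = 0.012)) and overlapped the newborn ones (0.73 ± 0.28 (SE, adjusted p = 0.0561)). The Pola1 call after microfracture ended without microfractured replicate 3 or uninjured replicate 1, with adjusted p up to 0.0534. Prim2 was called only for newborn over microfractured adult (0.65 ± 0.24 (SE, adjusted p = 0.0451)), and that call ended in 6 of 7 fits with 1 array left out.

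**Figure D3:**
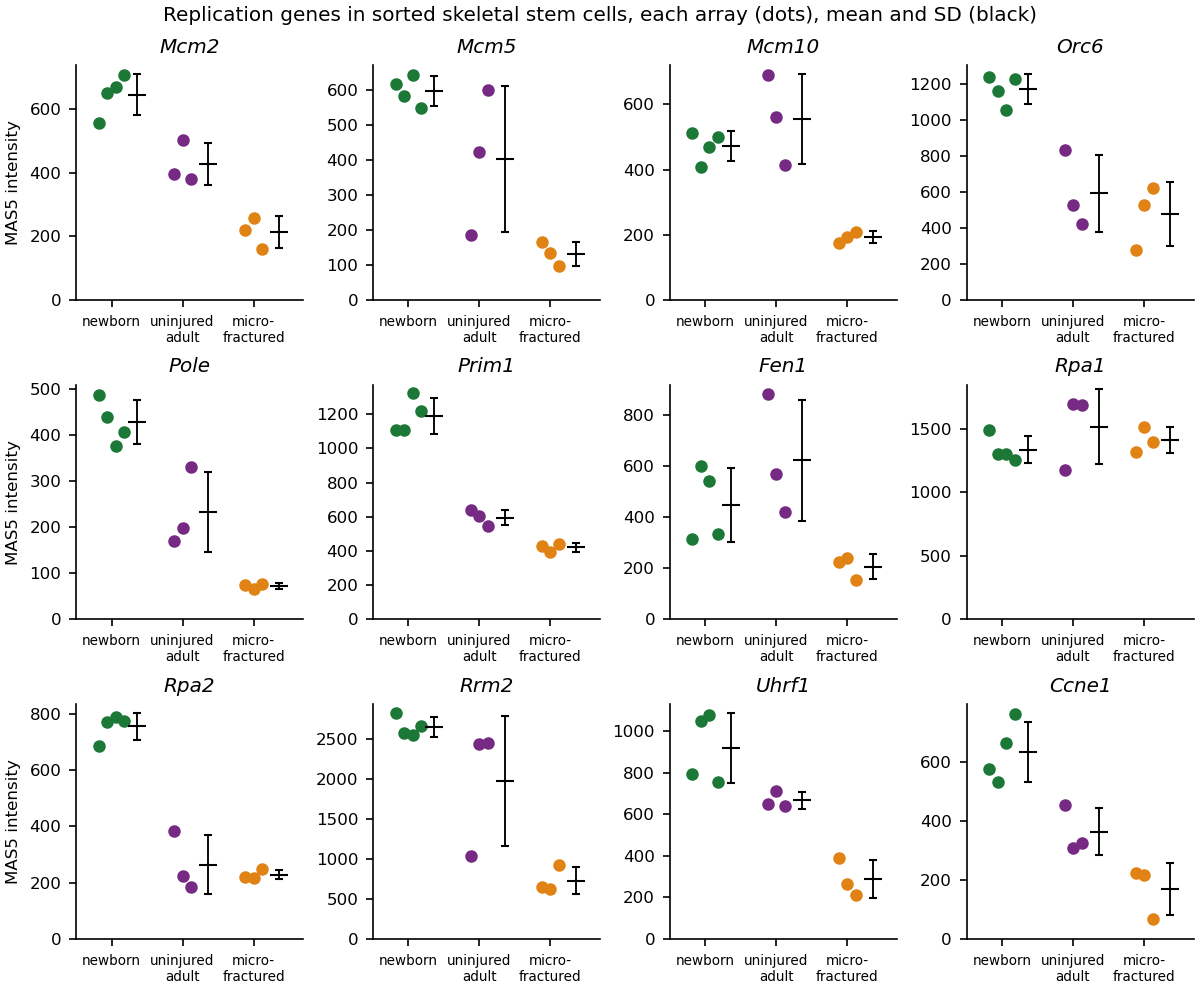
MAS5 intensity of 12 replication genes on each sorted-cell array (dots), with the group mean and SD in black, for 4 newborn, 3 uninjured adult and 3 microfractured adult arrays, each panel with its own linear axis from 0. Mcm2, Pole, Prim1, Uhrf1 and Ccne1 show 3 groups without overlap, Mcm10 and Fen1 are lowest after microfracture with newborn and uninjured arrays overlapping, Rpa2 and Orc6 are high only in newborns, and Rpa1 overlaps throughout.

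Of the 7 genes tested that load the clamp, coat single strands or join strands, 2 (28.6%) were lower after microfracture. That is near the 19.8% of all genes called lower. In newborns 5 (71.4%) were higher than in microfractured adults, against 18.4% of all genes. The nuclease Fen1, which trims Okazaki fragments, read 879.8, 566 and 418 in uninjured adults, 312, 597, 539 and 333 in newborns and 226, 241 and 152 after microfracture. All microfractured arrays were lower than all others, and the other groups overlapped. Fen1 was lower after microfracture at a log2 difference of -1.48 ± 0.33 (SE, adjusted p = 0.00608) and higher in newborns than in microfractured adults by 1.02 ± 0.31 (SE, adjusted p = 0.019), the latter lost in 3 of 7 fits with 1 array left out. Lig1, the ligase that seals those fragments, was lower after microfracture at a log2 difference of -0.69 ± 0.23 (SE, adjusted p = 0.0379) and lost that call in 3 of 6 such fits. Rfc4, a subunit of the clamp loader, read 571, 610.5, 706 and 682 in newborns, 354, 419 and 330.2 in uninjured adults and 253, 291 and 243 after microfracture. Its groups did not overlap, and newborns were higher by 0.78 ± 0.19 (SE, adjusted p = 0.0036) and 1.24 ± 0.19 (SE, adjusted p = 0.000215) than uninjured and microfractured adults, while the adult difference was -0.46 ± 0.20 (SE, adjusted p = 0.0933). Rfc3 was called only for newborn over microfractured adult (1.00 ± 0.26 (SE, adjusted p = 0.00924)), and Rfc5 in no comparison.

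The subunits of replication protein A, which coats single-stranded DNA, did not move alike. Rpa2 read 686, 770.2, 789 and 775 in newborns, 382, 225 and 185 in uninjured adults and 220.2, 218 and 248 after microfracture. Newborn arrays were far above all adult arrays, and the adult groups overlapped. Rpa2 was higher in newborns by 1.52 ± 0.24 (SE, adjusted p = 0.000194) against uninjured adults and by 1.66 ± 0.24 (SE, adjusted p = 0.000137) against microfractured adults, in a gene that also entered the test only through its newborn arrays. Rpa1 averaged 1336 ± 105 (SD, n = 4) in newborns, 1516 ± 297 (SD, n = 3) in uninjured adults and 1410 ± 99.2 (SD, n = 3) after microfracture. Its log2 differences were -0.086 ± 0.18, -0.16 ± 0.17 and -0.078 ± 0.17 (SE), none of which passed.

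Of the nucleotide supply genes tested, all 4 were higher in newborns than in microfractured adults, where 18.4% of all genes were called higher. Rrm2, the small subunit of ribonucleotide reductase that is made in S phase, read 2815, 2565, 2548 and 2652 in newborns, 1038, 2429 and 2449.8 in uninjured adults and 642, 621 and 919 after microfracture. Uninjured replicate 1 was near the microfractured arrays, yet the groups did not overlap. Rrm2 was lower after microfracture at a log2 difference of -1.34 ± 0.29 (SE, adjusted p = 0.0053) and higher in newborns than in microfractured adults by 1.86 ± 0.27 (SE, adjusted p = 0.000151), and both calls held with any 1 array left out. The newborn excess over uninjured adults was 0.52 ± 0.27 (SE, adjusted p = 0.117). Rrm1, the large subunit, read 857, 1103, 872 and 903 in newborns, 613, 937 and 792 in uninjured adults and 352, 553 and 341 after microfracture. It was lower after microfracture at a log2 difference of -0.90 ± 0.23 (SE, adjusted p = 0.0118), with no overlap, but newborns and uninjured adults overlapped (0.27 ± 0.22 (SE, adjusted p = 0.314)). Leaving out uninjured replicate 2 ended the Rrm1 call after microfracture (adjusted p = 0.0553). Thymidine kinase Tk1 and the dUTPase Dut exceeded uninjured adults in newborns by 0.88 ± 0.33 (SE, adjusted p = 0.0382) and 0.86 ± 0.31 (SE, adjusted p = 0.0323), and lost these calls in 5 and 6 of 7 fits with 1 array left out. Tyms, which makes thymidylate, was low on all sorted arrays, at 235, 164 and 56.9 in uninjured adults, 48.2, 116, 72.7 and 71.9 in newborns and 69.6, 10.7 and 23.9 after microfracture.

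Among the chromatin and repair genes, Uhrf1 had the lowest p after microfracture. UHRF1 binds hemimethylated DNA behind the fork and recruits the maintenance methyltransferase DNMT1. Uhrf1 read 793, 1049.9, 1077 and 758 in newborns, 650.3, 714 and 639.8 in uninjured adults and 392, 264 and 213 after microfracture. The 3 groups did not overlap. Its log2 difference was -1.20 ± 0.24 (SE, adjusted p = 0.00381) after microfracture and 1.64 ± 0.22 (SE, adjusted p = 9.66e-05) for newborn over microfractured adult, whereas newborn over uninjured adult, 0.44 ± 0.22 (SE, adjusted p = 0.114), did not pass. Dnmt1 itself read 1003, 936, 938 and 1173 in newborns, 413, 569.7 and 873 in uninjured adults and 369, 434 and 558 after microfracture. Newborn arrays were above all adult arrays, and the adult groups overlapped. Dnmt1 was higher in newborns by 0.76 ± 0.24 (SE, adjusted p = 0.0178) and 1.14 ± 0.24 (SE, adjusted p = 0.00247) against uninjured and microfractured adults, and the first call ended in 3 of 7 fits that left out 1 array. Brca1, a repair factor that protects stalled forks, read 459.8, 325 and 295 in uninjured adults, 322, 279.9, 254 and 155 in newborns and 163, 150.3 and 71.8 after microfracture. The adult groups did not overlap and differed by -1.42 ± 0.35 (SE, adjusted p = 0.0102), a call lost without uninjured replicate 1 (adjusted p = 0.0522). Chaf1b, a subunit of the histone chaperone CAF-1, read 32.2 to 114 in newborns, 6.28 to 44.0 after microfracture and 50.1, 347 and 443 in uninjured adults.

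Of the 3 regulators of S-phase entry, 2 were lower after microfracture, where 19.8% of all genes were called lower. In newborns 1 was higher than in microfractured adults, where 18.4% of all genes were called higher. Ccne1, the cyclin that activates CDK2 at the start of S phase, read 577, 533, 666 and 762.1 in newborns, 455, 308 and 327 in uninjured adults and 224, 217 and 67.5 after microfracture. No groups overlapped. It was lower after microfracture at a log2 difference of -1.16 ± 0.36 (SE, adjusted p = 0.0269), a call lost in 4 of 6 fits with 1 array left out, and newborns exceeded microfractured adults by 1.95 ± 0.34 (SE, adjusted p = 0.000628) in every such fit. E2f1, a transcription factor of many of these genes, read 395, 261 and 284 in uninjured adults, 233, 260.1, 268 and 231 in newborns and 206, 144 and 147 after microfracture. Microfractured arrays were below all others. E2f1 passed the filter only with the uninjured arrays counted, so its difference after microfracture was favoured by the filter. E2f1 was lower after microfracture at a log2 difference of -0.85 ± 0.26 (SE, adjusted p = 0.0262), a call that also ended in 4 of 6 such fits, and the newborn contrasts did not pass (-0.30 and 0.55). Ccne2 was called in no comparison, with 0.10, 1.18 and 1.08, and its uninjured arrays ran from 96.7 to 643.

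Calls that did not depend on any 1 array numbered 6 of 15 after microfracture (Mcm2, Mcm10, Pole, Fen1, Rrm2 and Uhrf1). For newborn over uninjured adult they numbered 6 of 14 (Gins2, Orc6, Prim1, Pole2, Rfc4 and Rpa2), and for newborn over microfractured adult 23 of 28. Gins1 is not among the 23 because it fell below the filter in 4 of 7 fits and was not tested there. Rpa2 in both newborn counts, and Mcm5, Pole, Rfc3 and Dut among the 23, had passed the filter only with the newborn arrays counted. The filter favoured these newborn differences. Of the 6 calls after microfracture, Mcm10 and Fen1 also kept their call with centred arrays and after quantile normalization, Pole only with centred arrays, Rrm2 and Uhrf1 only after quantile normalization, and Mcm2 in neither. The blood cell markers named above moved in these comparisons too. After microfracture all 8 myeloid, 7 erythroid and 3 lymphocyte markers tested were lower, with median log2 differences of -1.86, -1.85 and -2.12. In newborns against uninjured adults the same lists gave medians of -4.09, -3.86 and -2.41, with 8 of 8, 6 of 7 and 3 of 3 called lower. Between newborns and microfractured adults myeloid markers were lower in newborns in 5 of 8 cases, erythroid ones in 6 of 7 and lymphocyte ones in 0 of 3. The part of these markers in the replication gene differences was not tested.

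A second list of 40 genes that also act in replication was read from the same fit. Of these, 32 were tested in sorted cells, and after microfracture 8 (25%) were lower and 0 higher, near the 19.8% of all genes called lower, with a median log2 difference of -0.207 and 12 of 32 above 0. Dscc1, a subunit of an alternative clamp loader, had -2.14 ± 0.32 (SE, adjusted p = 0.00122), the licensing inhibitor Gmnn -1.33 ± 0.24 (adjusted p = 0.00264) and the checkpoint mediator Clspn -1.89 ± 0.41 (adjusted p = 0.00578). In newborns against uninjured adults 13 of 32 (40.6%) were higher and 1 lower, where 25.2% of all genes were called higher, with a median of 0.497, led by Tipin (1.69 ± 0.21, adjusted p = 3.66e-05), Rfc1 (1.37 ± 0.19, adjusted p = 7.46e-05) and Topbp1 (1.43 ± 0.23, adjusted p = 0.000241). Against microfractured adults 18 (56.2%) were higher and 0 lower, where 18.4% of all genes were called higher, with a median of 0.988.

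In whole bone the newborn replication genes lay on the other side, lower than in adults, and few passed the test. The values here are the authors' activity scores, bounded at -100 and 100, so differences are in score points and not folds. The median score over the 39 genes was 29.2, -2.68 and 19 on the newborn arrays, 52.6 to 64.7 on the uninjured adult arrays and 42.5 to 55.2 on the microfractured arrays. Newborn replicate 2 was the lowest and had 22 of 39 genes above the score used as a filter, against 31 or more on each other array. Of the 37 genes tested, 0 were higher and 2 lower in newborns than in uninjured adults, where 2.02% of all genes were called higher and 4.40% lower. The 2 calls are 5.41% of the genes tested, close to that background. The median difference was nevertheless -30.7 points against 0.046 over all 16373 genes tested, 31 of 37 lay below 0, and 12 (32.4%) were lower with no overlap between arrays, against 9.23% of all genes. Without newborn replicate 2 the median difference was -20.3 and 1 gene was called, and 1 was called without uninjured replicate 2, 3 or 4. Without newborn replicate 1 there were 4 calls.

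Fen1 and Brca1 were the genes called. Fen1 scored 61.1, 24.1 and 44.6 in newborns, 99.9, 83.7, 96.7, 97.3 and 99.4 in uninjured adults and 80.5, 65.3 and 87.3 in microfractured adults. Newborn arrays were below all adult arrays, and newborns differed from uninjured adults by -52.1 ± 9.58 (SE, adjusted p = 0.0107) points, a call that held with any 1 array left out. Brca1 scored 81.9, 63.7 and 53.4 in newborns, 98.5, 97.7, 99, 98.2 and 81.5 in uninjured adults and 87.0, 92.7 and 89.0 in microfractured adults. Newborn replicate 1 overlapped the lowest uninjured array, and the groups differed by -28.6 ± 7.10 (SE, adjusted p = 0.0376) points. The Brca1 call ended in 6 of 8 fits that left out 1 array, and it rests on 1 probe set. The other Brca1 probe sets, tested singly in limma, had adjusted p of 0.308 to 0.643. Among them 1 differed by 41.2 points in the other direction. Rrm2 scored 28.1, -7.90 and 8.39 in newborns, 55.7, 69.7, 77.0, 75.6 and 60.5 in uninjured adults and 42.5, 60.1 and 48.0 in microfractured adults, so the newborn arrays were the lowest, but its difference of -58.2 ± 15.6 (SE, adjusted p = 0.0506) points just missed the threshold. Mcm3 scored 68.8, 64.6 and 50.4 in newborns, 73.7, 98.6, 96.0, 98.2 and 96.0 in uninjured adults and 81.6, 100 and 72.7 in microfractured adults, and newborns differed from uninjured adults by -31.2 ± 8.61 (SE, adjusted p = 0.0567) points with no overlap. Gins1 scored 17.6, -43.1 and 14.2 in newborns and 62.1, 92.6, 93.5, 92.9 and 38.5 in uninjured adults, and Ccne2 3.32, -42.5 and -45.0 and 28.9, 66.5, 37.4, 87.2 and 83.9. These genes differed by -79.7 ± 22.4 (SE, adjusted p = 0.0609) and -88.8 ± 25.7 (SE, adjusted p = 0.067) points, again with no overlap and no call. Another probe set of Gins1 differed by 5.01 points in the other direction.

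**Figure D4:**
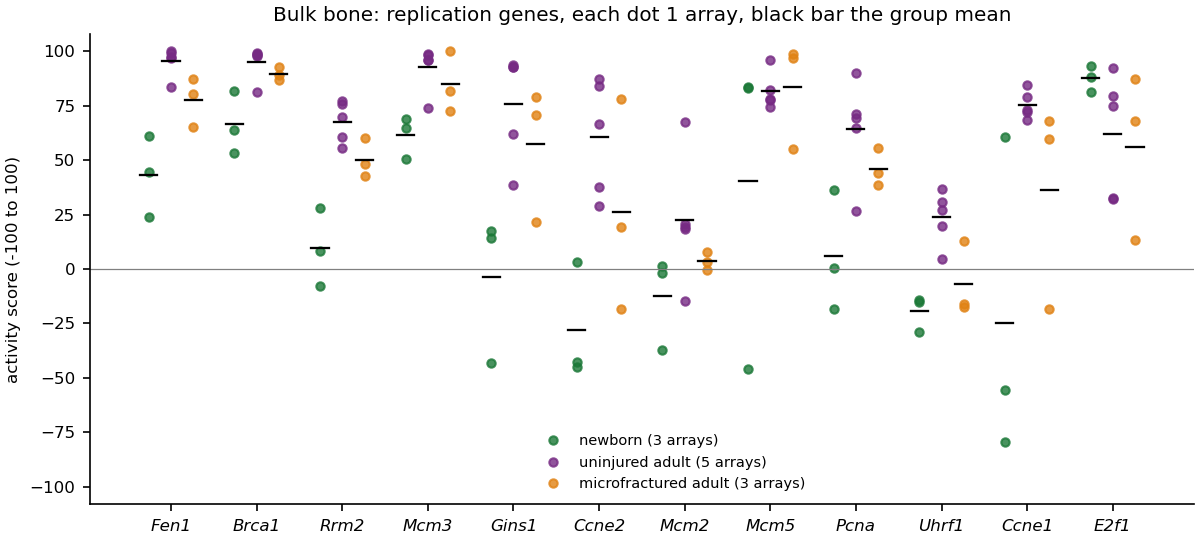
Activity score (axis from -100 to 100) of 12 replication genes on each whole-bone array, with newborn (3 arrays), uninjured adult (5 arrays) and microfractured adult (3 arrays) side by side and black bars for group means. Newborn dots lie lowest for Fen1, Rrm2 and Mcm3, whereas E2f1 is at 81.2 to 93.1 in newborns and overlaps the adults.

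Pcna, the sliding clamp and a common stain for dividing cells, could be read only on these arrays. It scored 36.1, -18.2 and 0.28 in newborns, 26.7, 64.7, 71.2, 69.4 and 89.8 in uninjured adults and 38.4, 55.4 and 44.2 in microfractured adults. Newborns overlapped uninjured adults only at uninjured replicate 1, and the difference of -58.3 ± 19.8 (SE, adjusted p = 0.114) points did not pass. Uhrf1 (-43.2 ± 14.1 (SE, adjusted p = 0.101)) and Ccne1 (-100.3 ± 31.6 (SE, adjusted p = 0.0903)) were lower in newborns without overlap and without a call, while Mcm2 and Mcm5 differed by -34.7 ± 18.9 and -41.4 ± 25.8 points with overlapping arrays. The 3 Mcm5 newborn scores were 83.7, -46.0 and 82.9. E2f1 scored 81.2, 93.1 and 88.2 in newborns, and differed from uninjured adults by 25.4 ± 19.2 points in the other direction. Each gene is read here from 1 probe set, the one whose mean was highest, and 31 of the genes have several. Probe sets of a gene all pointed one way between newborns and uninjured adults for 19 of the 31 and disagreed for 12. Across all 89 probe sets 71 lay below 0.

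Microfracture left no replication gene with a call in whole bone. In limma 0 of 37 were higher and 0 lower, as were 0% of all genes in either direction. The median difference was -10.7 points against 2.24 over all genes tested, and 28 of 37 lay below 0. With no overlap between arrays 5 (13.5%) were lower and 0 higher, against 4.59% and 5.02% of all genes. Of all 89 probe sets of these genes, 68 lay below 0. At an unadjusted p below 0.05 there were 0 higher and 2 lower among the 37 and 816 higher and 792 lower among all 16373. The 2 were Orc6, with -38.1 ± 14.0 points, and Prim1, with -15.9 ± 6.04 (SE). Between newborns and microfractured adults 0 of 37 were called in either direction, against 0.403% of all genes higher and 1.05% lower, and the median difference was -16 points against -3.67. At an unadjusted p below 0.05 there were 0 higher and 7 lower there, and 1018 higher and 1470 lower among all 16373. Without newborn replicate 2 the median difference was -7.77 points. Leaving out newborn replicate 3 gave 1 lower call in that comparison. Blood cell markers were lower in newborn bone as well. The mean score was -40.5 to -16.2 over 8 erythroid markers in newborns, 21.4 to 39.9 in uninjured and 1.59 to 27.3 in microfractured adults, and -36 to -15.1, 39.5 to 56.8 and 37.3 to 42.9 over 10 myeloid markers. The part of these cells in the bone differences was not tested. Of the second list of replication genes 34 were tested in bone. In newborns 0 were higher and 4 (11.8%) lower than in uninjured adults (median -42.3 points), where 4.40% of all genes were called lower. The other comparisons gave 0 calls.

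The single arrays of factor-treated joints gave similar scores for most replication genes on the probe set used for each, the one of highest mean. Some other probe sets moved further. A Tyms probe set not used scored -9.22 with PBS, 62.6 with BMP2 and 64.4 with VEGFR1. The other probe set of Dut scored -15.1, 50.4 and -56.85, and that of Chaf1b -81.5, -75.8 and 6.45, in the same order. With 1 array per treatment there is no test, and a difference of 50 points was taken as the mark. The median score of the 39 genes was 35.2 with PBS, 28.9 with BMP2 and 34.5 with VEGFR1. BMP2, a bone morphogenetic protein that drives skeletal differentiation, was at least 50 points higher than PBS for 1 gene and lower for 0, where 5.24% of all genes were higher and 6.36% lower. VEGFR1, a receptor for VEGF whose soluble form binds that ligand, was at least 50 points higher for 2 and lower for 0, where 5.39% of all genes were higher and 5.23% lower. The median difference was -1.5 points for BMP2 and 0.88 for VEGFR1, against -0.45 and -0.3 over all genes. Both comparisons share the PBS array.

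Pole2 was the gene past the mark with both factors on the probe sets used. It scored -30.6 with PBS, 72.1 with BMP2 and 86.1 with VEGFR1. Its other probe set scored 53.5, 34.5 and 36.6 in the same order, so the 2 probe sets disagreed. Pola1 scored -41.9 with PBS, -72.0 with BMP2 and 74.3 with VEGFR1, and another of its probe sets scored 9.53, 0.7 and 10.4. On the probe set used for each, the 10 helicase genes differed from PBS by at most 11.8 points. Cdc45 at -11.8 and Mcm5 at -10.7 points for BMP2 were the furthest. Other probe sets of these genes moved further in places. Another of Mcm5 scored 6.05 with PBS, -61.5 with BMP2 and -11.0 with VEGFR1, and its remaining one -24.6, -27.2 and -18.9. The other probe set of Cdc45 scored 36.9, 1.59 and 13.8 in the same order. Mcm2 scored 27.8 with PBS, 23.5 with BMP2 and 29.0 with VEGFR1, Mcm3 63.8 with PBS, 63.8 with BMP2 and 64.8 with VEGFR1 and Mcm10 98.4 with PBS, 96.9 with BMP2 and 98.7 with VEGFR1, close to the upper bound of the score. Rrm2, at 89.6 with PBS, 88.8 with BMP2 and 92.9 with VEGFR1, and Uhrf1, at 20.3 with PBS, 21.7 with BMP2 and 24.7 with VEGFR1, were also close across the 3 arrays. The lowest differences from PBS with BMP2 were those of Cdt1 (-43.6 points), Pola1 (-30.1), Orc1 (-23.9), Cdc6 (-18.7) and Dnmt1 (-14.2). After Pole2, the highest differences with BMP2 were those of Chaf1b (36.5), Lig1 (9.20), Orc6 (6.78) and Ccne2 (5.73). With VEGFR1 the highest differences after Pole2 and Pola1 were those of Orc1 (40.8), Rrm1 (27.1) and E2f1 (18.7), and the lowest those of Rpa2 (-23.4), Ccne2 (-17.0), Cdc6 (-13.9), Prim1 (-13.4) and Dut (-12.7). The Orc1 difference with VEGFR1 came from 1 probe set, and its other probe set scored 15.3 with PBS and 8.31 with VEGFR1. The other probe sets of Rrm1 scored 61.0 and 4.70 with PBS and 49.0 and 8.03 with VEGFR1. Those of E2f1 scored -22.2 and -12.3 with PBS, -7.55 and -81.4 with BMP2 and -31.1 and -27.7 with VEGFR1. Rpa2 rose on its other probe set, from 26.4 with PBS to 42.9 with VEGFR1. The other probe sets of Cdt1 scored -5.90 and -31.3 with PBS and -9.75 and -35.6 with BMP2.

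**Figure D5:**
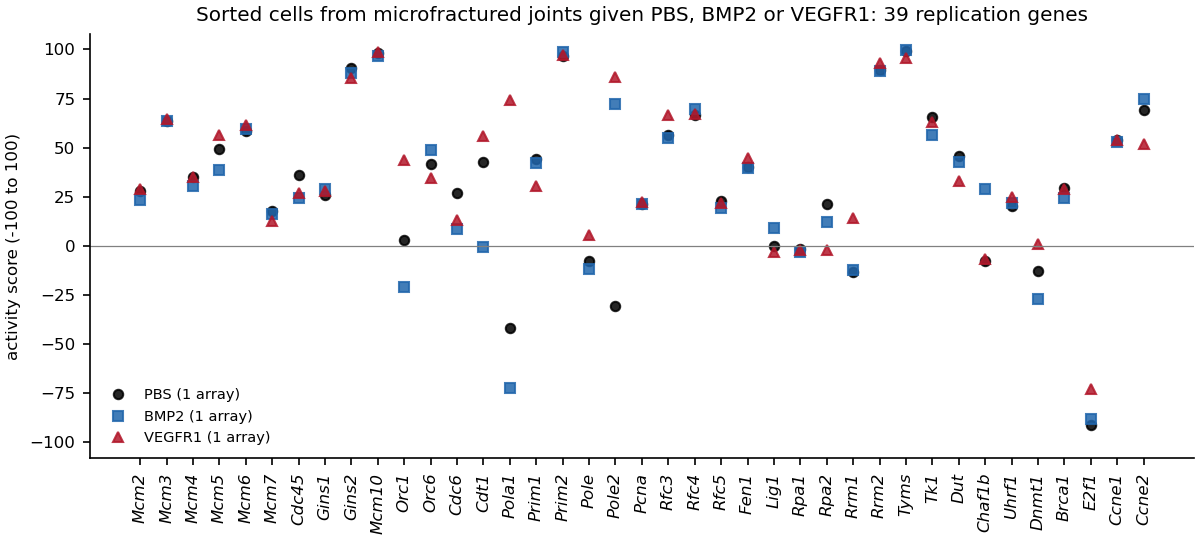
Activity score (axis from -100 to 100) of 39 replication genes on the single arrays for PBS (circles), BMP2 (squares) and VEGFR1 (triangles), each of stem cells from a microfractured joint. Each gene is read from its probe set of highest mean. Most genes have the 3 marks close together, and Pole2, Pola1, Orc1, Cdt1 and Chaf1b spread the furthest.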

How the data were processed

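The 40 genes and the other gene lists were chosen with earlier results of these data known. Sorted-cell values are linear MAS5 intensity per gene, regrouped by the authors with a custom probe definition per the file headers and named MAS5 in the submitters' processing notes; its version and scaling target were not stated. Whole bone and factor arrays carry an activity score per probe set, deposited as such, whose computation was not given in the sources used here. Smaller value tables were identical to these (0 of 180520 and 0 of 631414 values differed).

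Arrays were grouped by their titles. Intensity was tested as log2(value + 16), so folds understate changes of low genes; scores entered the fit untransformed, with a gene represented by its single-symbol probe set of highest mean. Genes above the median of all values (250.4 intensity, -14.46 score) on at least 3 arrays were kept, 10893 in sorted cells and 16373 in bone. Newborn, uninjured and microfractured arrays shared 1 fit per table in limma 3.58.1 (R 4.3.3, eBayes with a variance trend, 2-sided), with Benjamini-Hochberg adjustment over all genes tested and a threshold of 0.05. The fit was tested on simulated data. Whether replicates were separate animals is not in the labels; p-values therefore cover only the spread between these samples, possibly a technical one, and the number of arrays limits the precision.

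Per-array values are given for the 12 genes with the smallest p after microfracture, the 8 next by newborn against uninjured adult, always Mcm2, Mcm5, Pcna, Rrm2, Uhrf1, Ccne1 and E2f1, the 6 with the smallest p in newborn bone, and the 5 highest and 5 lowest differences of each factor; of the second list, the 3 with the smallest p per comparison. Orc1, Cdt1, Tyms, Rpa1, Chaf1b and other values outside that rule were added after the values were seen. Alternatives were another pseudocount, filter, scaling, variance trend and probe set rule, the groups fitted alone, a replicate block and each array left out.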

Additional observations from a re-analysis of the deposited data

Results flagged for a closer look

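In groups of 4 or more arrays, a single array sometimes lay far from the others, which chance alone gives in about 1 group in 20. Among newborn sorted arrays 1 of 38 genes was set apart in this way, Mcm6, at 1391.37 in replicate 2 against 2220.06 to 2274.67 in the others. Among the 5 uninjured adult bone arrays 7 of 39 genes were. Replicate 1 scored 73.74 for Mcm3 (others 96.01 to 98.59), -0.13 for Cdt1 (67.6 to 82.47) and 99.07 for Rfc4 (99.73 to 99.98). Replicate 5 scored -32.94 for Mcm10 (97.4 to 99.72), -99.2 for Rfc5 (-20.59 to 1.43) and 81.45 for Brca1 (97.71 to 99). Replicate 2 scored 83.67 for Fen1 (96.68 to 99.89).

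Several genes were higher in newborns in sorted cells and lower in newborns in bone, with no overlap of arrays in either. The units differ, so these values cannot be subtracted, and the difference between sorted cells and bone was not tested. Against uninjured adults the log2 difference in sorted cells and the score difference in bone were 0.8032 and -31.24 points for Mcm3, 1.017 and -28.79 for Orc6, 0.78 and -37.57 for Rfc4, and 0.5212 and -58.15 for Rrm2. They were 0.861 and -20.15 for Dut, 0.4362 and -43.2 for Uhrf1, and 0.7854 and -100.3 for Ccne1. Against microfractured adults they were 1.368 and -23.48 for Mcm3, 1.927 and -61 for Gins1, 1.021 and -34.45 for Fen1, and 1.861 and -40.68 for Rrm2.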

How the results depend on the processing

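The number of replication genes called lower after microfracture in sorted cells, 15 as reported, was 6 with a filter at the 75th percentile (20 genes tested), 5 with median-centred arrays (1 higher and 4 lower), 8 after quantile normalization and 7 when just the 2 adult groups were fitted. Leaving out 1 array gave 9 to 19. Prim1 turned to 0.17 with median-centred arrays. Newborn over uninjured adult, 14 as reported, was 28 with median-centred arrays, where 52.3% of all genes were called higher. It was 6 to 13 with 1 array left out, and 23.5% of all genes were called higher in the fit that gave 6. Newborn over microfractured adult, 28 as reported, was 17 with the 75th percentile filter (20 genes tested) and 23 to 29 with 1 array left out. In bone, newborn against uninjured adult, 2 as reported, was 4 after quantile normalization, 4 without a variance trend, 1 with the 2 groups fitted alone and 1 to 4 with 1 array left out; with probe sets tested singly, an alternative chosen after seeing the data, it was 4. Newborn against microfractured adult bone was 0 to 1 with 1 array left out. On the factor arrays the mean of all probe sets gave 0 genes for BMP2 and 1 for VEGFR1. The causes were not tested beyond the smaller number of genes kept by the stricter filter.

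No pairing by replicate number was assumed in the main fits. Deviations of same-numbered arrays correlated at -0.0673 to 0.278 in sorted cells and -0.222 to 0.115 in bone. With so few arrays per group these values cannot decide whether arrays were paired. With the replicate number as a block and only replicates 1 to 3 of each group, the counts were 14, 12 and 26 in sorted cells and 0, 0 and 0 in bone. The same arrays without the block, an alternative chosen after seeing the data, gave 14, 10 and 25, and 0, 0 and 0. Low scores and scores near the bounds limit what bone can show, since a score near 100 can hardly rise.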
